A study of Mus musculus with 30 samples.

Results

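The nucleus pulposus (NP) of aged LG/J mice was compared with that of young adults on 10 of the 30 arrays of the series, 6 from mice at 23 months (23M) and 4 from mice at 6 months (6M). The arrays were chosen by the strain and age in their labels, and 18674 autosomal genes of the 19505 genes with 1 symbol are described. LG/J is an inbred strain known for large body size and for good healing of ear wounds and cartilage. All LG/J mice were untreated animals of the same inbred strain, and tissue of the caudal discs of 1 animal was pooled for each array, so the replicates are separate mice. According to the study's methods, LG/J mice were bought from a breeder and BL6 mice came from a colony of aged animals. BL6 mice (C57BL/6, the reference inbred strain), also untreated, at 6M (n = 7) and 23M (n = 7) served as a second aging series and shared the fit. The question set by the design was how the NP transcriptome differs between young and old mice of this strain.

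The NP is the gel-like core of the intervertebral disc. Its cells descend from the embryonic notochord, live without blood vessels at low oxygen, and keep a matrix of aggrecan and type II collagen that holds water. Aging discs lose proteoglycan, and NP cells can take on features of chondrocytes or fibroblasts, which is why genes of cartilage matrix, hypertrophy, mineral and stress were listed here.

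Sex ran with age in LG/J, as read from the arrays. The labels give no sex. The study's methods list 1 LG/J set that was mostly female and 1 that was all male but print 23M for both, and they count more mice in the former than there are LG/J arrays labelled 6M. Averaged over the genes Uty, Eif2s3y and Kdm5d of the Y chromosome, the log2 level lay between 3.28 and 3.70 on the 4 arrays at 6M and between 9.18 and 9.75 on the 6 arrays at 23M. Age and sex therefore cannot be told apart within LG/J, and every difference below is one between 23M arrays with a high and 6M arrays with a low Y-linked level. Of the BL6 arrays, 3 of 7 at each age had a high Y-linked level, so a fit with the Y-linked mean as a covariate takes its slope from BL6. Its age difference for LG/J is given below as the Y-adjusted difference, and it assumes that sex acts on LG/J discs as it does on BL6 discs. The array numbers in the titles also ran with age, from 1 to 4 at 6M and from 6 to 11 at 23M, with the same date on all 10 titles.

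Arrays of LG/J correlated with each other at 0.990 to 0.993 within 6M, 0.987 to 0.993 within 23M and 0.984 to 0.991 between the ages. The first principal component of the 10 arrays held 24.2% of the variance and parted the ages. The 6M arrays scored from -26.7 to -21.2 and the 23M arrays from 2.56 to 29.7. Array 3 at 23M had the score nearest to the 6M arrays. It also had the highest mean level of the skeletal muscle markers, 6.09, against 5.20 to 5.36 on the other 23M arrays and 5.12 to 5.28 at 6M. The median of the negative control probes averaged 5.88 over the 6M arrays and 5.86 over the 23M arrays, and a gene whose group mean lay below this was taken as not above the controls. RNA of whole tissue was measured, so fewer cells of a type and less RNA per cell cannot be told apart.

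The tissue label fitted most of its markers. Of 21 NP and notochord genes on the array, 5 were not above the controls at either age, namely Aqp5, Basp1, Car12, Foxf1 and Foxf2, and Pax1 was above them only at 6M. The brachyury gene Tbxt has no named probe set here. Car3, the carbonic anhydrase abundant in NP cells, had a mean level of 19.44 at 6M and 19.38 at 23M, and the glucose transporter Slc2a1 had 18.69 and 18.66. Krt19 and Krt8, keratins of NP cells, had 16.53 and 16.58 at 6M and 16.32 and 16.50 at 23M. Among these 21 genes, Foxa1 was called higher and Cd24a lower at 23M.

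A call meant a p-value under 0.05 in limma after Benjamini-Hochberg adjustment over all genes with 1 symbol, with no fold threshold. Of 18674 autosomal genes, 428 (2.29%) were called, 267 (1.43%) higher and 161 (0.862%) lower at 23M. Counts of called list members below are to be read beside these shares. At an unadjusted p under 0.05, 2690 genes differed. The median log2 difference was 0.93 among the genes called higher and -0.77 among those called lower, against -0.02 over all autosomal genes, and 113 of the former and 43 of the latter changed at least 2-fold. The 6M and 23M values did not overlap for 193 of the genes called higher and 102 of those called lower, whereas 685 of all genes (3.67%) had values that did not overlap. Of the called genes, 18 higher and 28 lower ones were above the controls at neither age. With the Y-linked level as a covariate, 97 of the 428 genes were still called (62 higher and 35 lower), and all 428 kept their sign. In BL6, where sex could be fitted, 11 autosomal genes were called for the Y-linked level, and 1 of these was among the 428. The calls fell to 244 without 6M array 2 and to 262 without 6M array 4, to 199 when LG/J arrays were fitted alone, and to 251 when all 30 arrays shared the fit.

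**Figure D1:**
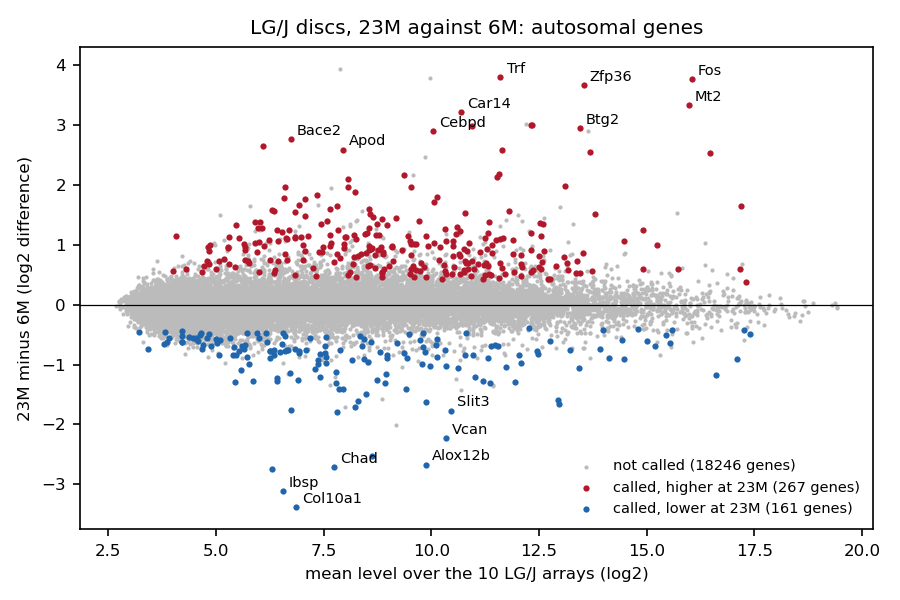
Log2 difference between 23M and 6M LG/J discs (vertical axis) against the mean log2 level over the 10 arrays (horizontal axis), with 1 point per autosomal gene. Of 18674 genes, 267 were called higher (red) and 161 lower (blue), and the named genes are those with large differences.

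The genes with the largest rises included immediate early genes, which cells transcribe within minutes of a stimulus, and genes that such stimuli also induce. Of 51 genes listed as immediate early genes or as feedback regulators of MAPK, 10 were called higher at 23M and none lower, with a median log2 difference of 0.65 over the 51. Fos, a subunit of the transcription factor AP-1, had log2 levels of 10.01, 12.36, 15.91 and 16.88 on the 4 arrays at 6M and of 15.86 to 18.36 (median 17.73) on the 6 at 23M. The 6M arrays were far apart, and the highest 2 of them overlapped the lowest array at 23M. The difference was 3.76 ± 0.85 (± SE; adjusted p = 0.0146 from limma). Zfp36, which encodes tristetraprolin, a protein that marks AU-rich mRNAs for decay, had 9.34, 9.78, 12.49 and 13.71 at 6M and 12.81 to 16.47 (median 15.02) at 23M, a difference of 3.67 ± 0.74 (adjusted p = 0.00537). Btg2, an antiproliferative gene induced by p53, did not overlap, with 11.39, 10.95, 11.65 and 12.71 at 6M and 12.74 to 15.94 (median 14.76) at 23M (2.95 ± 0.53, adjusted p = 0.00201). On all 3 genes the lowest value at 23M was that of array 3. Ier2 rose by 3.00 ± 0.58, Junb, a partner of Fos in AP-1, by 3.00 ± 0.71, the zinc finger factor Egr1 by 2.53 ± 0.58, and Klf2, a Krüppel-like factor, by 2.13 ± 0.46. Etv5, an ETS factor of FGF signalling, rose by 1.34 ± 0.29, Spred2, an inhibitor of Ras and MAPK signalling, by 1.19 ± 0.23, and the kinase gene Map3k8 by 0.95 ± 0.25. Junb, Etv5 and Spred2 were named after their values were seen. Fosb, with 9.22, 10.97, 12.92 and 14.50 at 6M and 12.62 to 16.49 (median 14.99) at 23M, was not called (2.89 ± 1.00, adjusted p = 0.136). The 6M values of Fos, Zfp36 and Fosb climbed from the lowest array number to the highest, and those of Btg2 did not. The array numbers also ran with age, and a trend with them was not tested.

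These genes varied with single arrays and with the covariate. The number called higher in the list of 51 was 5 without 6M array 2, 6 without 6M array 1 and 8 to 10 without any other LG/J array. Without 6M array 1 or 2 the calls of Fos, Egr1 and Junb were lost, with adjusted p of up to 0.0785, 0.0955 and 0.114. The call of Etv5 was lost without 6M array 2 or 4 (up to 0.0587), and that of Map3k8 without any 6M array or 23M array 1, 2, 5 or 6 (up to 0.12). The size of the differences moved as well. Without 6M array 1 the difference was 2.50 for Fos, 3.01 for Zfp36, 2.27 for Ier2, 2.07 for Junb and 1.88 for Egr1. Without 6M array 4 it was 4.79 for Fos, 4.46 for Zfp36, 3.64 for Ier2, 3.68 for Junb and 3.13 for Egr1. The Y-adjusted differences were 3.59 ± 1.12 for Fos (adjusted p = 0.158), 3.61 ± 0.97 for Zfp36 (0.0881), 2.75 ± 0.70 for Btg2 (0.0678), 2.95 ± 0.77 for Ier2 (0.0752) and 2.16 ± 0.76 for Egr1 (0.227). With this covariate 1 of the 51 genes, Spred2, was called (1.26 ± 0.30, adjusted p = 0.0443), and the median of the list was 0.34. In BL6, 1 gene of the list was called higher and 3 lower at 23M, with a median difference of -0.70. The age difference of LG/J exceeded that of BL6 by 5.23 ± 1.10 for Fos (adjusted p of the interaction = 0.0243), by 4.89 ± 0.96 for Zfp36 (0.0139), by 3.98 ± 0.69 for Btg2 (0.00463), by 4.62 ± 0.75 for Ier2 (0.00278), by 4.29 ± 0.76 for Egr1 (0.00478) and by 6.27 ± 1.30 for Fosb (0.0218). In BL6 the mean of Fos was lower at 23M, at 15.44, than at 6M, at 16.91, and that difference was not called (adjusted p = 0.377).

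Promoters of 2 of these genes are shown because both rose by over 2 log2 units and both hold the half-site TGACG, the core of the cAMP response element. The sequences are the 250 bases before the start of each gene in the RefSeq table for GRCm38.p6, written 5′ to 3′ on the gene's strand, with TGACG and its reverse complement in capitals. Fos lies on the plus strand at chr12:85473640-85473889 and Btg2 on the minus strand at chr1:134079156-134079405.
Fos: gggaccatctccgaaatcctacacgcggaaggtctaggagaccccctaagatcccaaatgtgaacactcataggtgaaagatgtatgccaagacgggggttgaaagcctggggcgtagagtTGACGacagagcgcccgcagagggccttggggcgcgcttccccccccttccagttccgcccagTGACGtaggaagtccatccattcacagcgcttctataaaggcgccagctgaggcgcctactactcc
Btg2: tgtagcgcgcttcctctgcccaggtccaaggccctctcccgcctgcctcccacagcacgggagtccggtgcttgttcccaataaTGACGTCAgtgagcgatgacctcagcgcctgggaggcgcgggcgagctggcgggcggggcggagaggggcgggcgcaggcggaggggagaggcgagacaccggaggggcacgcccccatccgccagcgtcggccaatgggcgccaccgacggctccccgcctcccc
The half-site occurs 129 and 66 bases before the start of Fos. In Btg2 a match 166 bases before the start and 1 on the other strand overlap in a palindrome. Of 32851 promoters of this length in the table, 17.8% hold at least 1 match on either strand and 3.9% at least 2. Because the 2 genes were picked for holding the half-site, these shares do not show an excess. Promoters of the other genes with such rises are not described. A match is a run of letters only, and no binding was measured.

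Metallothioneins, small proteins that bind zinc and copper and are induced by metals, oxidants and glucocorticoids, were among the clearest rises. Mt2 had 13.12, 13.76, 14.26 and 14.76 at 6M and 15.27 to 18.70 (median 17.55) at 23M, with no overlap, and array 3 was again the lowest at 23M. The difference of 3.33 ± 0.40 was a fold change of 10.1 (adjusted p = 1.99e-05). Mt1, with 16.04, 16.07, 16.14 and 16.53 at 6M and 16.79 to 18.50 (median 17.94) at 23M, rose by 1.65 ± 0.20 (adjusted p = 1.99e-05). The 6M values of both genes climbed in the order of the array numbers. The Y-adjusted differences were 3.13 ± 0.53 (adjusted p = 0.00315) and 1.62 ± 0.26 (adjusted p = 0.0022). In BL6 the differences were -0.34 ± 0.33 and -0.08 ± 0.17, neither of them called, and the difference between the strains was 3.67 ± 0.52 (adjusted p of the interaction = 0.000837) and 1.73 ± 0.26 (0.00126). At 6M the mean of Mt2 was 13.97 in LG/J and 17.21 in BL6, and at 23M it was 17.31 and 16.88.

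The promoters of both metallothionein genes are shown because the genes are neighbours that rose together, although by different amounts. The RefSeq table places these 250 bases at chr8:94178839-94179088 for Mt1 and chr8:94172368-94172617 for Mt2, on the plus strand of GRCm38.p6. Capitals mark TGCNCNC, searched on both strands. This pattern is looser than the core of the metal response element, TGCRCNC, where R is A or G.
Mt1: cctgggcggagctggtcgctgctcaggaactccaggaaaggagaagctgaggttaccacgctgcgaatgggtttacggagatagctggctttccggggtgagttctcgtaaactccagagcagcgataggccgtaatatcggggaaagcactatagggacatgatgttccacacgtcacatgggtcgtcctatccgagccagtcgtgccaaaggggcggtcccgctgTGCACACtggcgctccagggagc
Mt2: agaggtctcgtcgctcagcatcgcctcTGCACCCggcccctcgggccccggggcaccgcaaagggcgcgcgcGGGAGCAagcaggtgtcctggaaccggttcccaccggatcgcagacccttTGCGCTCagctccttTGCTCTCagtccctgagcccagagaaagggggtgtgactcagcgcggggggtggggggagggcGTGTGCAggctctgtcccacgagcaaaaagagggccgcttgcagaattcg
Mt2 has 5 matches, at 223, 178, 128, 113 and 50 bases before the start, and Mt1 has 1 at 23 bases. Read on their own strand, those of Mt2 at 178 and 113 bases have T in place of R, so they are not the core. At least 1 match of the looser pattern is held by 44.4% of the 32851 promoters and at least 5 by 0.344%. The windows end at the start that the table gives, and an element beyond them is not shown.

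Genes of the glucocorticoid response were called higher along with the metallothioneins. Of 19 measured, 5 were called higher and none lower, with a median difference of 0.92, and 19 of 19 were above 0. With the Y-linked covariate 4 were called, the median was 0.81, and 4 to 7 were called with 1 LG/J array left out. Fkbp5, a co-chaperone of the glucocorticoid receptor and a classical target of it, had 11.44, 11.61, 12.50 and 12.05 at 6M and 12.73 to 15.13 (median 13.69) at 23M (1.99 ± 0.37, adjusted p = 0.00259). Its groups did not overlap, and its Y-adjusted difference was 2.14 ± 0.48 (adjusted p = 0.0321). Cebpd, a transcription factor of acute responses, had 7.79, 7.73, 8.65 and 9.01 and 9.56 to 12.37 (median 11.30) (2.90 ± 0.53, adjusted p = 0.00255). The Y-adjusted difference of Cebpd was 2.28 ± 0.68 (adjusted p = 0.13), and the strains differed by 3.50 ± 0.69 (adjusted p of the interaction = 0.0145). Mt1, Mt2 and the sulfotransferase gene Sult1a1 were the other called members. Sult1a1 was not above the controls at 6M, so its rise was at least 1.14-fold (fitted difference 0.96 ± 0.21). The call of Sult1a1 was lost without 6M array 2 (adjusted p = 0.05). In BL6 no gene of the list was called in limma and the median difference was -0.05.

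Of 33 genes of the oxidative stress response, 4 were called higher and none lower (median 0.10). Besides the metallothioneins these were Gsta4, a glutathione transferase for lipid aldehydes, and Cat, the catalase gene. Gsta4 ranged from 6.84 to 7.15 at 6M and from 7.85 to 8.24 at 23M, a difference of 1.02 ± 0.17 (adjusted p = 0.000669), with a Y-adjusted difference of 0.80 ± 0.21 (0.0752). Cat rose by 0.53 ± 0.11 (adjusted p = 0.00801; Y-adjusted 0.60 ± 0.15, 0.0556). Cat and Sult1a1 were named after their values were seen. Hspb1, a small heat shock protein, rose by 1.07 ± 0.27 as the single called member of 35 heat shock genes, a share near the 2.29% of all autosomal genes called. Its call was lost without 6M array 1, 2 or 4 or 23M array 5 or 6 (adjusted p up to 0.0901) and with the Y-linked covariate (0.192).

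**Figure D2:**
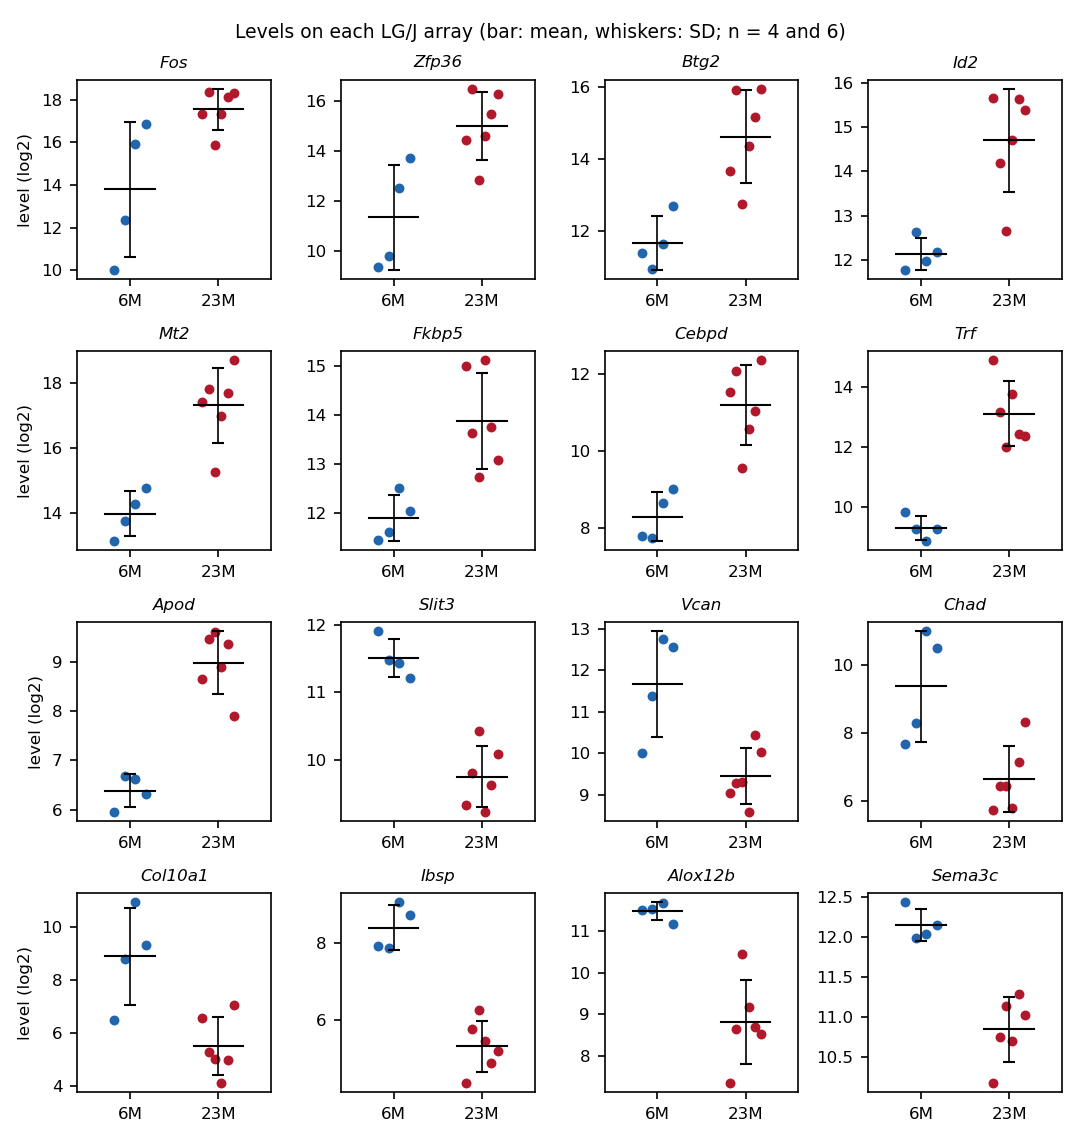
Log2 levels of 16 genes on the 4 arrays at 6M (blue) and the 6 at 23M (red) of LG/J discs, with the mean (bar) and SD (whiskers) of each group. The 6M values of Fos run from 10.01 to 16.88 and overlap those at 23M, whereas Mt2, Slit3 and Sema3c show no overlap.

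Trf, the gene of the iron carrier transferrin, had the largest rise of all called genes. It had 9.84, 9.29, 8.88 and 9.27 at 6M and 14.91, 13.18, 12.00, 13.80, 12.46 and 12.39 at 23M. All 6 values at 23M lay above those at 6M, and the difference of 3.80 ± 0.44 was a fold change of 14 (adjusted p = 1.18e-05). In BL6 it rose as well, by 1.91 ± 0.37 (adjusted p = 0.00435), and the difference between the strains was not called (1.89 ± 0.58, adjusted p of the interaction = 0.152). Trf was also the member of the 428 genes that was called for the Y-linked level in BL6, where a Y-linked gap as wide as that of LG/J went with a difference of 1.09 ± 0.17 (adjusted p = 0.00628). Its Y-adjusted difference was 2.74 ± 0.48 (adjusted p = 0.00523).

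Bace2, an aspartyl protease related to the beta-secretase of amyloid precursor protein, had the smallest p-value among the genes named here. It had 4.44, 5.37, 5.24 and 5.26 at 6M, where it was not above the controls, and 7.14 to 8.75 (median 7.77) at 23M. With the control level as a floor it rose by at least 1.96 on the log2 scale, a fold change of at least 3.88, and the fitted difference was 2.76 ± 0.23 (adjusted p = 6.72e-08). The Y-adjusted difference was 2.68 ± 0.30 (adjusted p = 1.91e-05), and the strains differed by 2.31 ± 0.30 (adjusted p of the interaction = 0.000269). Apod, which encodes the lipid-binding apolipoprotein D, had 5.95, 6.68, 6.62 and 6.31 at 6M and 7.91 to 9.61 (median 9.12) at 23M. It rose by 2.59 ± 0.39 in LG/J and by 2.61 ± 0.33 in BL6 (adjusted p = 0.000335 and 2.87e-05), and its Y-adjusted difference was 2.33 ± 0.51 (0.0296). Serpina3n, an acute phase inhibitor of serine proteases, likewise rose in both strains, by 2.98 ± 0.76 (adjusted p = 0.0307) and 3.27 ± 0.63 (0.00435). In LG/J its level at 23M ran from 10.52 to 15.76, and the call was lost without any 6M array or 23M array 5 (adjusted p up to 0.102) and with the Y-linked covariate (1.59, 0.513). Without 23M array 1 the difference was 2.26 for Serpina3n and 2.61 for Car14. The latter, a membrane-bound carbonic anhydrase, had 8.30 to 9.27 at 6M and 10.52 to 15.03 (median 11.23) at 23M (3.22 ± 0.66, adjusted p = 0.00643; Y-adjusted 2.63, 0.179). The remaining transcripts among the 12 largest rises with no overlap were AW112010 (2.58 ± 0.33, adjusted p = 3.36e-05; Y-adjusted 2.89, 0.00075) and E330013P04Rik (2.16 ± 0.36, adjusted p = 0.000988; Y-adjusted 1.72, 0.0836). Lack of overlap was part of the rule that named these 12.

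Most cartilage matrix genes that passed the test were lower at 23M. Of 36 cartilage proteoglycans and matrix glycoproteins, 5 were called lower and 1 higher, with a median difference of -0.19 over the list. Chad, which encodes chondroadherin, a collagen-binding protein of cartilage, had 7.68, 8.30, 10.97 and 10.49 at 6M and 5.73 to 8.34 (median 6.45) at 23M (-2.71 ± 0.58, adjusted p = 0.00941). Cilp, the cartilage intermediate layer protein, had 8.78, 9.84, 11.71 and 10.25 and 5.39 to 9.71 (median 7.67) (-2.53 ± 0.59, adjusted p = 0.0187). Vcan, the large proteoglycan versican, had 10.00, 11.39, 12.75 and 12.56 and 8.58 to 10.44 (median 9.30) (-2.23 ± 0.43, adjusted p = 0.0042). For these 3 genes 6M arrays 3 and 4 were high and 6M array 1 lay within the range of the 23M arrays. For Chad 6M array 2 lay within that range as well. Fbln1 and Eln, genes of elastic fibres named after their values were seen, fell, with differences of -0.65 and -0.76, although Fbln1 was above the controls at neither age. Cnmd, which encodes chondromodulin, a cartilage glycoprotein that holds off blood vessels, was in none of the lists and is named for its large fall, after its values were seen. It had 7.09, 6.03, 10.85 and 7.79 at 6M and 4.09 to 6.11 (median 5.17) at 23M, where it was not above the controls, and fell at least 4.23-fold (fitted difference -2.74 ± 0.60, adjusted p = 0.0115; Y-adjusted -2.86 ± 0.79, 0.102). Array 3 at 6M was the highest for Cnmd. Without it the bound was 2.16-fold and the fitted difference -1.77 (adjusted p = 0.0486), and the call was lost with LG/J arrays alone (0.076) and with all 30 arrays. Prg4, which encodes lubricin, rose by 2.18 ± 0.57 (adjusted p = 0.0373) and by 2.56 ± 0.47 in BL6 (0.00303). Acan, the aggrecan gene and the main NP proteoglycan, was 18.53 ± 0.09 (SD, n = 4) at 6M and 18.39 ± 0.18 (SD, n = 6) at 23M and was not called (-0.13 ± 0.11, adjusted p = 0.626).

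The number of this list called lower was 1 without 6M array 3 and 3 to 5 without any other LG/J array. The calls of Chad and Cilp were lost without 6M array 3 or 4 (adjusted p up to 0.0578 and 0.0897). Those of Eln and Fbln1 were lost without 6M array 2 or 3 or 23M array 5, and that of Fbln1 also without 6M array 1 (up to 0.128 and 0.0967). Prg4 lost its call without 6M array 1, 2 or 4 or 23M array 1, 2 or 6 (up to 0.142). With the Y-linked covariate 3 genes of the list were called lower and none higher in limma. The Y-adjusted differences were -2.64 ± 0.56 for Vcan (adjusted p = 0.0251), -3.14 ± 0.76 for Chad (0.0492), -2.85 ± 0.78 for Cilp (0.0929) and 1.38 ± 0.71 for Prg4 (0.461). When all 30 arrays shared the fit, none of the list was called in either direction. In BL6 Chad had a difference of 0.68 ± 0.48 (adjusted p = 0.602), and the strains differed by -3.38 ± 0.75 (adjusted p of the interaction = 0.0366).

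Genes of hypertrophic cartilage and bone moved in both directions. Of 41 endochondral and osteogenic genes, 2 were called higher and 3 lower (median -0.04). At an unadjusted p under 0.05, 22 of the 41 differed, against 2690 of all 18674 autosomal genes. Of the 41, 17 were above the controls at neither age. Col10a1, the collagen of hypertrophic chondrocytes, had 6.51, 8.79, 10.93 and 9.34 at 6M and 4.11 to 7.07 (median 5.17) at 23M, where its mean was not above the controls. The groups overlapped through 6M array 1. With the control level as a floor the gene fell by at least 8.2-fold, and the fitted difference was -3.38 ± 0.66 (adjusted p = 0.00439). Without 6M array 3 the bound was 5.12-fold and the difference -2.70, and without 6M array 1 they were 14.2-fold and -4.17, with the call kept in both cases. In BL6 the difference was 1.04 ± 0.55 (adjusted p = 0.44), and the strains differed by -4.42 ± 0.86 (adjusted p of the interaction = 0.0133). The Y-adjusted difference in LG/J was -4.50 ± 0.80 (0.00542). Ibsp, bone sialoprotein, which binds hydroxyapatite, had 7.93, 7.89, 9.08 and 8.76 at 6M and 4.33 to 6.25 (median 5.31) at 23M, with no overlap and a mean that was not above the controls at 23M. The fall was at least 5.88-fold, with a fitted difference of -3.11 ± 0.45 (adjusted p = 0.000205), and Ibsp fell in BL6 too, with a difference of -2.91 ± 0.37 (3.82e-05), from 12.55 to 9.65. Its Y-adjusted difference in LG/J was -4.19 ± 0.49 (3.42e-05). Gdf5, a growth factor of joints, fell, with a difference of -0.77 ± 0.17 (adjusted p = 0.0138), a call lost without 6M array 2 or 4 (up to 0.0838), with a Y-adjusted difference of -0.99 ± 0.22 (0.0295).

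The 2 members that rose were transcription factors. Mef2c, a driver of chondrocyte hypertrophy, had 8.63, 8.14, 8.21 and 6.72 at 6M and 8.93 to 9.77 (median 9.10) at 23M, with no overlap (1.35 ± 0.26, adjusted p = 0.00355; Y-adjusted 1.42 ± 0.34, 0.0484). It rose in BL6 as well, by 1.55 ± 0.21 (adjusted p = 8.79e-05). Runx1, a Runt factor of early cartilage, rose by 1.13 ± 0.29 (adjusted p = 0.0305), a call lost with the Y-linked covariate (0.61, 0.51) and without 6M array 1, 2 or 4 or 23M array 1, 5 or 6 (up to 0.128). Alpl, tissue-nonspecific alkaline phosphatase, was below the controls at both ages and was not called (-0.82 ± 0.24, adjusted p = 0.0644), while its Y-adjusted difference was (-1.23 ± 0.29, adjusted p = 0.0421). Bmp6 and Postn, a growth factor and the matrix protein periostin, had differences of 0.85 ± 0.31 and 0.91 ± 0.32 that were not called (0.161 and 0.142). Postn was not above the controls at 6M, and with their level as a floor its difference was 1.64-fold. Galnt3, whose enzyme protects the phosphate hormone FGF23 from cleavage, fell, with a difference of -1.66 ± 0.39 (adjusted p = 0.0186) as the called member of 21 genes of phosphate and mineral control. That call was lost without 6M array 3 or 4 (up to 0.0797) and with the Y-linked covariate (0.316).

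Several of these genes are also markers of neighbouring tissues, whose lists are given here in full. The mean level of 27 chondrocyte and hypertrophic chondrocyte markers lay between 8.61 and 9.27 on the 6M arrays and between 8.37 and 8.71 on the 23M arrays. Of these 27, 3 were called lower (Chad, Ibsp and Col10a1) and 1 higher (Prg4), and 9 were above the controls at neither age. For 19 osteoblast and osteocyte markers the mean was 5.78 to 5.96 at 6M and 5.26 to 5.59 at 23M, with 13 above the controls at neither age and Ibsp as the called gene. For 28 markers of annulus fibrosus, tendon and fibroblasts it was 6.72 to 7.47 and 6.52 to 7.22. Of these 28, 1 was called higher and 2 lower, and 11 were above the controls at neither age. The part of other tissues dissected with the NP in the differences of Col10a1, Ibsp, Chad, Cilp and Vcan was not tested.

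Of 29 collagen genes, Col10a1 was the called one, and the median difference was -0.08. Adamts5, an aggrecan-cleaving protease, was the called gene among 39 matrix proteases and inhibitors. Single calls in lists of 29 and 39 genes are near the 2.29% of all autosomal genes that were called. It had 7.55, 9.24, 7.56 and 7.40 at 6M and 6.32 to 7.34 (median 6.80) at 23M, and 6M array 2 was apart from the rest. The difference of -1.07 ± 0.29 (adjusted p = 0.0481) lost its call without that array (0.239 at most), and the call was also lost without 6M array 1 or 23M array 1, 4, 5 or 6 and with the Y-linked covariate (0.251). Tgm2, a transglutaminase that crosslinks matrix, rose by 1.28 ± 0.29 (adjusted p = 0.0136), a call lost without 6M array 1 or 4 (up to 0.0735) and with the covariate (0.078).

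Targets and regulators of BMP and TGF-beta signalling were called in both directions. Of 43 such genes, 5 were called higher and 1 lower (median 0.05). The Id genes encode proteins that block basic helix-loop-helix factors and are transcribed in response to BMP. Id2 had 11.78, 12.63, 11.99 and 12.19 at 6M and 12.65 to 15.65 (median 15.04) at 23M, with no overlap (2.55 ± 0.41, adjusted p = 0.000611). Id3 had 7.08, 6.54, 6.70 and 8.11 and 7.76 to 11.06 (median 8.54) (1.89 ± 0.47, adjusted p = 0.0277), and Id1 had 10.88, 11.30, 10.60 and 10.68 and 11.39 to 13.64 (median 12.21) (1.57 ± 0.38, adjusted p = 0.0239). For Id1 and Id3 the 23M arrays 1 and 5 were the highest. In BL6 both Id1 and Id3 fell, with differences of -1.44 ± 0.32 (adjusted p = 0.0126) and -2.31 ± 0.39 (0.00111), while Id2 was not called (-0.78 ± 0.34). The interaction was called for Id1 (3.01 ± 0.49, adjusted p = 0.003), Id2 (3.34 ± 0.53, 0.00257) and Id3 (4.20 ± 0.61, 0.000908). Smad6 (0.73 ± 0.18), an inhibitory Smad, and Bambi (0.60 ± 0.17), a decoy receptor, rose and were named after their values were seen. Ltbp1, which holds latent TGF-beta in the matrix, fell, with a difference of -1.03 ± 0.21 (adjusted p = 0.00626; Y-adjusted -1.07 ± 0.28, 0.0752).

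The number of BMP and TGF-beta genes called higher was 1 or 2 without any 6M array or 23M array 1 or 5. Id1 lost its call without 6M array 1, 3 or 4 or 23M array 1 or 5 (adjusted p up to 0.0743), and Id3 without 6M array 1, 2 or 3 or 23M array 1 or 5 (up to 0.107). Smad6 lost it without 6M array 2, 3 or 4 or 23M array 1 or 5 (up to 0.0871), and Bambi without any 6M array or 23M array 1, 2, 4 or 6 (up to 0.165). With the Y-linked covariate none of the 43 genes was called in limma. The Y-adjusted differences of Id1, Id2 and Id3 were 1.05 ± 0.48, 2.20 ± 0.53 and 1.45 ± 0.61 (adjusted p = 0.381, 0.0504 and 0.328). At an unadjusted p under 0.05 without the covariate, 14 of the 43 differed, against 2690 of all 18674 autosomal genes.

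The 12 largest falls with no overlap included the following genes. Slit3, a ligand of Robo receptors, had 11.91, 11.48, 11.44 and 11.22 at 6M and 9.22 to 10.42 (median 9.72) at 23M (-1.77 ± 0.18, adjusted p = 1.68e-06). Its Y-adjusted difference was -1.74 ± 0.24 (0.000336), and it fell by more than in BL6 (interaction -1.49 ± 0.23, adjusted p = 0.00205). Sema3c, a class 3 semaphorin, had 12.44, 11.99, 12.04 and 12.15 and 10.17 to 11.29 (median 10.88) (-1.31 ± 0.17, adjusted p = 4.88e-05; Y-adjusted -1.39 ± 0.23, 0.00213; interaction -1.13 ± 0.22, 0.0145). Ninj2, an adhesion molecule of the ninjurin family, fell, with a difference of -1.60 ± 0.17 (adjusted p = 3e-06; Y-adjusted -1.40 ± 0.22, 0.00132), and Slc22a17, a receptor for lipocalin 2, fell with one of -1.41 ± 0.15 (4.59e-06; Y-adjusted -1.36 ± 0.20, 0.000977). For both the interaction with strain was called, at -1.14 ± 0.22 (adjusted p = 0.0129) and -1.14 ± 0.20 (0.00478). Flrt3, a membrane protein that binds unc-5 and latrophilin receptors, had 8.02, 9.17, 6.87 and 7.19 and 5.75 to 6.35 (median 6.09) (-1.77 ± 0.28, adjusted p = 0.000611; Y-adjusted -1.58 ± 0.37, 0.0421).

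Alox12b, the 12R-lipoxygenase of the epidermal lipid barrier, had 11.51, 11.54, 11.68 and 11.17 at 6M and 7.34 to 10.45 (median 8.67) at 23M. The difference was -2.67 ± 0.36 (adjusted p = 8.48e-05; Y-adjusted -2.12 ± 0.45, 0.0247), and array 3 was the highest of the 23M arrays. Wnt16, a Wnt ligand of bone and cartilage, was uniform at 6M (10.76 to 10.98) and spread at 23M (7.57 to 9.97), with a difference of -1.63 ± 0.29 (adjusted p = 0.00195; Y-adjusted -1.30, 0.113). Krt80, a type II keratin, fell, with a difference of -1.30 ± 0.26 (adjusted p = 0.00628; Y-adjusted -1.55, 0.0296), and Nkain4, which binds a subunit of the sodium pump, fell with one of -1.41 ± 0.24 (0.00118; Y-adjusted -1.53, 0.0206). Insyn2b fell in both strains, with a difference of -1.80 ± 0.31 in LG/J (adjusted p = 0.00134) and -1.52 ± 0.26 in BL6 (0.00113), with a Y-adjusted difference of -1.65 (0.0564). Krt80 was not called when all 30 arrays shared the fit. Ibsp and Galnt3, described with the bone genes, completed the 12.

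Genes of inflammation were called in small numbers. Of 54 cytokines, chemokines and receptors, 3 were called higher, and of 27 genes of the NF-kB pathway 2. Of 48 interferon response genes 2 were, and of 17 genes of antigen presentation 2, with no gene of these 4 lists lower. In each list the share called higher was above the 1.43% of all autosomal genes, on counts of 2 or 3. Of 16 complement genes, 1 was called higher, the protease gene C1s1 (0.98 ± 0.24, adjusted p = 0.0237; Y-adjusted 1.29, 0.0393), and 1 lower, Masp1 of the lectin pathway (-0.85 ± 0.21, adjusted p = 0.0296; Y-adjusted -0.57, 0.41). C1s1 lost its call without 6M array 1, 3 or 4 or 23M array 4 (up to 0.103), and Masp1 without 6M array 1, 2 or 4 or 23M array 4 or 5 (up to 0.143). Il6, a cytokine of the acute phase, was not above the controls at 6M (4.21, 4.40, 4.85 and 4.53) and had 6.39, 8.47, 4.73, 6.17, 6.96 and 10.14 on the 23M arrays, and array 3 lay within the 6M range. With the control level as a floor it rose by at least 2.4-fold, or 1.58-fold without 23M array 6, and the fitted difference was 2.65 ± 0.61 (adjusted p = 0.0169). The chain Il6ra of its receptor rose by 1.06 ± 0.24 and Osmr, the receptor of oncostatin M, by 0.96 ± 0.23. Nfkbiz, a nuclear IkB protein, had 6.76, 6.29, 6.40 and 7.80 and 7.07 to 10.87 (median 8.90) (2.09 ± 0.54, adjusted p = 0.0352), and Bcl3, another, rose by at least 1.62-fold from a level not above the controls (1.37 ± 0.23, adjusted p = 0.000925; Y-adjusted 1.31, 0.0388). Both differed from BL6, by 3.32 ± 0.70 (adjusted p of the interaction = 0.0253) and 1.36 ± 0.30 (0.0311).

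Ifitm3, an antiviral membrane protein, had 8.69, 8.39, 8.28 and 7.89 at 6M and 9.24 to 10.19 (median 9.75) at 23M, with no overlap (1.44 ± 0.20, adjusted p = 0.000118; Y-adjusted 1.39, 0.00961). The immunoproteasome subunit Psmb8 rose by 1.13 ± 0.26 and its neighbour on chromosome 17, the peptide transporter Tap2, by 1.18 ± 0.19 (adjusted p = 0.000582; Y-adjusted 1.10, 0.0321). Cd80, a costimulatory ligand, rose by 1.08 ± 0.18 (adjusted p = 0.00133; Y-adjusted 1.16, 0.0247), against -0.41 ± 0.15 in BL6 (interaction 1.48 ± 0.24, 0.00278). With 1 array left out, calls were lost for Il6 (6M array 1 or 2), Il6ra and Psmb8 (6M array 4), Osmr (6M array 1, 2 or 4, or 23M array 1 or 5) and Nfkbiz (6M array 1, 2 or 3, or 23M array 2, 5 or 6). The highest adjusted p among these were 0.0531, 0.0529, 0.0754, 0.104 and 0.12. The Y-linked covariate also ended these 5 calls, with adjusted p of 0.226, 0.421, 0.0881, 0.273 and 0.346. Of 33 macrophage and monocyte markers, 23 were above the controls at neither age, and the mean level was 5.81 to 5.91 at 6M and 5.81 to 6.00 at 23M. Cd14, a coreceptor for lipopolysaccharide, was the called one of them (1.13 ± 0.23, adjusted p = 0.00626; Y-adjusted 0.75, 0.26). A single call among 33 markers is near the 2.29% of all autosomal genes that were called.

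**Figure D3:**
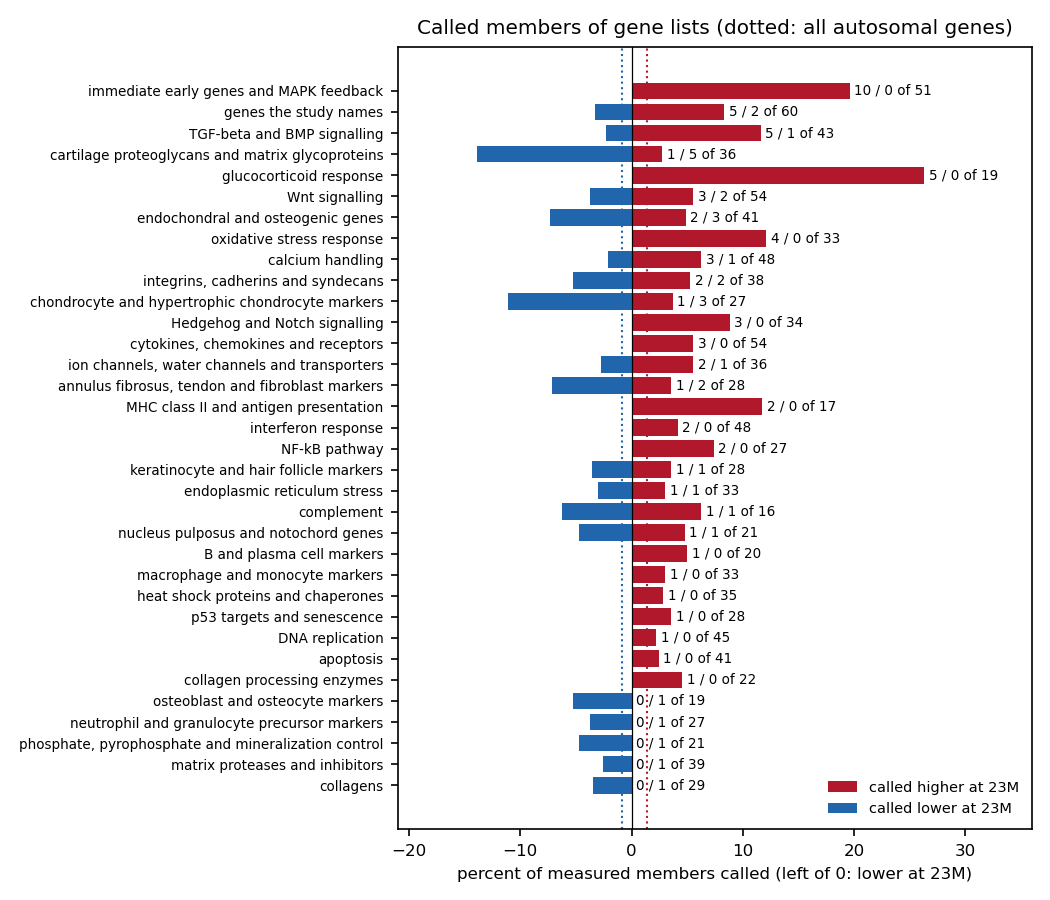
Share of the measured members called higher (red, right of 0) or lower (blue, left of 0) at 23M, in percent, for the pathway, marker and study lists with a called gene. Dotted lines mark the shares over all autosomal genes, 1.43% higher and 0.862% lower, and the numbers give the genes called higher and lower of those measured.

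Among developmental pathways, 3 of 54 Wnt genes were called higher and 2 lower. Wnt10a, a canonical Wnt ligand, had 6.66, 7.15, 6.48 and 6.67 at 6M and 7.67 to 8.54 (median 8.27) at 23M, with no overlap (1.40 ± 0.21, adjusted p = 0.000245; Y-adjusted 1.19, 0.0321). It rose in BL6 by 1.15 ± 0.17 (adjusted p = 0.00023). Fzd4, a Wnt receptor, rose by 0.86 ± 0.19 (adjusted p = 0.0121) and by 0.66 ± 0.16 in BL6 (0.024). Of 34 Hedgehog and Notch genes, 3 were called higher. Boc, a coreceptor of Sonic hedgehog, had 10.10, 10.51, 10.13 and 9.00 and 10.75 to 11.57 (median 11.12) (1.22 ± 0.21, adjusted p = 0.00118; Y-adjusted 1.16, 0.0475), and Jag2, a Notch ligand, rose by 1.09 ± 0.27 (adjusted p = 0.0247). Fzd4 lost its call without 6M array 1 or 2 (up to 0.0711) and with the Y-linked covariate (0.109). Jag2 lost it without 6M array 1, 2 or 3 or 23M array 4 (up to 0.0928) and with the covariate (0.2). Foxa1, a forkhead factor of the notochord, rose by 1.11 ± 0.27 (adjusted p = 0.0241), and Cd24a, a surface marker of NP cells, fell, with a difference of -0.43 ± 0.10 (0.0242). Foxa1 was not called without 6M array 1 or 23M array 1 or 4 (up to 0.127) and Cd24a without 6M array 1 or 2 or 23M array 1 (up to 0.0979), and neither was called with the covariate (0.22 and 0.123). Sox9, the master factor of cartilage and NP, was 16.73 ± 0.51 (SD, n = 4) at 6M and 17.18 ± 0.36 (SD, n = 6) at 23M and was not called (0.45 ± 0.29, adjusted p = 0.514).

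Called genes of calcium handling, ion transport and adhesion went in both directions. Camk2b, a calcium-dependent kinase, had 10.87, 10.82, 10.53 and 11.18 at 6M and 11.60 to 12.31 (median 11.91) at 23M (1.07 ± 0.16, adjusted p = 0.000245; Y-adjusted 0.94, 0.0293) and also rose in BL6 (0.71 ± 0.13, 0.00321). It was among 3 higher and 1 lower of 48 genes of calcium handling, with the calcium-binding protein gene S100a10 (0.73 ± 0.19, adjusted p = 0.0315), for which the strains differed by 1.26 ± 0.24 (adjusted p of the interaction = 0.0129). Slc12a2, the sodium-potassium-chloride cotransporter of NP cells, had 17.06, 17.51, 17.25 and 17.41 and 14.65 to 16.96 (median 16.26) (-1.18 ± 0.27, adjusted p = 0.0145). The subunit Scnn1a of the epithelial sodium channel rose by 0.84 ± 0.17 (0.00654). Dsc3 and Dsc2, desmosomal cadherins, fell, with differences of -1.06 ± 0.16 (adjusted p = 0.000296) and -0.99 ± 0.22 (0.0138). The fibronectin receptor gene Itga5 rose by 1.11 ± 0.28 (0.0325), and the syndecan gene Sdc2 by 0.70 ± 0.16 (0.0138). Of these, Camk2b and Dsc3 (Y-adjusted -1.14, 0.00775) were also called with the Y-linked covariate, and S100a10, Slc12a2, Scnn1a, Dsc2, Itga5 and Sdc2 were not (0.26, 0.281, 0.109, 0.204, 0.382 and 0.0881). Calls were lost without 6M array 2 for Slc12a2 (0.0575) and without 6M array 4 for Dsc2 and Sdc2 (0.0814 and 0.0694). S100a10 lost its call without 6M array 2 or 4 or 23M array 1, 3, 5 or 6 (up to 0.137), and Itga5 without 6M array 1, 3 or 4 or any 23M array but array 2 (up to 0.163).

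The study itself names genes for disc aging in these strains, which it chose on the same arrays, so their counts are no independent evidence. Several of them, such as Fos, Casp4, Col10a1 and Adamts5, it names for old LG/J against old BL6 mice. That contrast is between strains, so counts for 23M against 6M within LG/J do not test it. Of 60 named genes that were measured, 5 were called higher (Fos, Mef2c, Casp4, Cd14 and Map3k8) and 2 lower (Adamts5 and Col10a1), with a median difference of 0.17. Casp4, an inflammatory caspase, had 6.62, 6.65, 6.53 and 6.04 at 6M and 7.34 to 8.11 (median 7.54) at 23M, with no overlap (1.14 ± 0.27, adjusted p = 0.0227). Its call was lost without 6M array 4 (0.0964) and with the Y-linked covariate (0.85, 0.321). With that covariate 1 of the 60 was called higher, Mef2c, and 2 lower.

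No call was made by limma in 23 of the 59 lists, which hold 715 measured members, 78 of them at an unadjusted p under 0.05. That is a smaller share than over all autosomal genes, where 2690 of 18674 had such a p. The medians of these lists lay between -0.13 and 0.19. They include 71 genes of oxidative phosphorylation (9 at an unadjusted p under 0.05), 37 of glycolysis and the hypoxia response (6), 43 of mitosis (1), 55 of DNA repair (4), 30 of the proteasome (7), 43 of autophagy and the lysosome (3) and 25 of glycosaminoglycan synthesis (4). Of the other cell types that the dissection could hold, muscle, T and NK, endothelial and mast cells also had no call. Skeletal muscle markers were above the controls at neither age for 25 of 35 genes, T and NK cell markers for 19 of 21, endothelial markers for 18 of 23 and mast cell markers for 12 of 12. Neutrophil and granulocyte markers had a mean level of 4.74 to 5.23 at 6M and 4.93 to 5.34 at 23M, and 21 of 27 were above the controls at neither age. The called member of that list was Anxa1, which encodes the phospholipid-binding annexin A1 and was lower at 23M (-0.60 ± 0.14, adjusted p = 0.0199; Y-adjusted -0.80, 0.0311). Its call was lost without 6M array 1 or 2 (up to 0.0928).

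The aging of LG/J and BL6 discs was fitted together, so that the strains could be compared directly. In BL6 316 genes (1.69%) were called, 211 higher and 105 lower at 23M. Of the 428 LG/J genes, 55 were called in the same direction in BL6 (39 higher and 16 lower) and 6 in the opposite one. The 61 genes called in both strains, in either direction, were 14.3% of the calls of LG/J and 19.3% of those of BL6. Among genes that rose in both strains were Trf, Apod, Serpina3n, Prg4, Mef2c, Wnt10a, Fzd4 and Camk2b, and Ibsp, Insyn2b and Dsc3 fell in both. The age difference itself differed between the strains for 80 autosomal genes (0.428%), of which 50 were among the 428, 37 higher and 13 lower in LG/J at 23M. Genes called in 1 strain alone are not shown to differ between the strains outside these 80. The interaction was called for 53 genes without 6M array 1, for 42 without 6M array 2, for 41 with the Y-linked covariate and for 41 with the mean level of the skeletal muscle markers as a covariate. Muscle markers differed with age in BL6, where 12 of 35 were called higher at 23M with a median difference of 0.91, and their mean level was 5.30 to 5.79 at 6M and 5.75 to 7.82 at 23M. In LG/J none of the 35 was called in limma, and 0 had an unadjusted p under 0.05. For the neutrophil and granulocyte markers the median difference was 0.76 in BL6, with none called in limma, and the mean level was 5.93 to 7.81 at 6M and 6.13 to 9.27 at 23M. The interaction was called for 84 genes with that level as a covariate. The titles give the BL6 arrays another date than the LG/J arrays, so strain and date cannot be told apart, while both ages of a strain carry the same date.

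**Figure D4:**
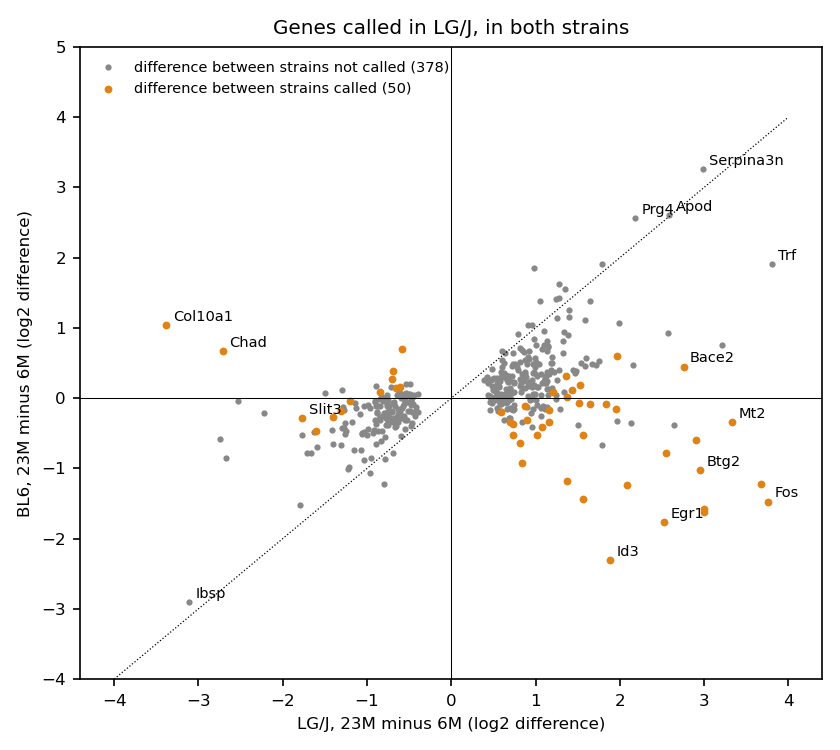
Log2 difference between 23M and 6M in BL6 (vertical axis) against that in LG/J (horizontal axis) for the 428 genes called in LG/J, with the dotted line of equal differences. The age difference was called as different between the strains for 50 genes (orange), with Fos, Btg2, Egr1 and Id3 higher in old LG/J and not in old BL6 mice and Col10a1 and Chad lower.

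The choice of arrays in the fit ended calls of some described genes. With LG/J arrays alone, 35 of the 84 called genes described lost the call, with adjusted p from 0.0561 to 0.161. These were Fos, Junb, Ier2 (0.0562), Egr1, Map3k8, Id1, Id3, Bambi, Ltbp1 (0.0626), Cilp, Prg4, Eln, Fbln1, Cnmd, Gdf5, Galnt3, Serpina3n, Cat, Il6, Osmr, Nfkbiz, Psmb8, Fzd4, Jag2, Adamts5, Tgm2, Slc12a2, Scnn1a (0.0624), Dsc2, Itga5, Cd24a, Foxa1, C1s1, Masp1 and Anxa1. With all 30 arrays in the fit 22 lost it, namely Serpina3n, Krt80, Chad, Cilp, Vcan, Prg4, Runx1, Gdf5, Osmr, S100a10, Adamts5, Hspb1, Itga5, Cd24a, Eln, Fbln1, Cat, Bambi, Cnmd, C1s1, Masp1 and Anxa1. Robust variances, array weights or quantile normalization ended the calls of Serpina3n, Id1, Id3, Prg4, Nfkbiz, Junb, Bambi, Osmr, Map3k8, Itga5, Runx1, Adamts5 and Fbln1.

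With the Y-linked level as a covariate the median differences of the called genes changed little, while single genes moved further. Trf went from 3.80 to 2.74 and Serpina3n from 2.98 to 1.59. Ibsp moved away from 0, from -3.11 to -4.19, and so did Col10a1, from -3.38 to -4.50. The errors of these 4 genes grew. The median difference changed from 0.93 to 0.81 for the 267 genes called higher and from -0.77 to -0.73 for the 161 called lower. Of the 90 genes described here with their differences, 84 were called, and 34 of these 84 were also called with the covariate. Those with the largest Y-adjusted differences among them were Col10a1 (-4.50 ± 0.80), Ibsp (-4.19 ± 0.49), Chad (-3.14 ± 0.76), Mt2 (3.13 ± 0.53), AW112010 (2.89 ± 0.42), Trf (2.74 ± 0.48), Bace2 (2.68 ± 0.30) and Vcan (-2.64 ± 0.56).

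**Figure D5:**
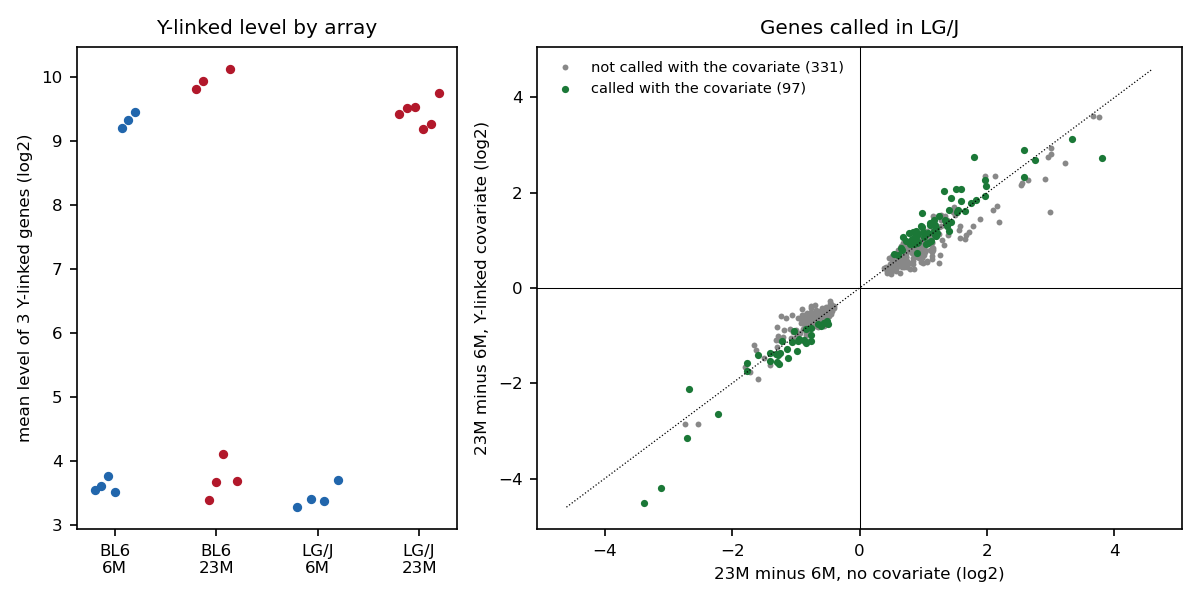
Left, mean log2 level of 3 Y-linked genes on each array of BL6 and LG/J at 6M (blue) and 23M (red); right, age difference of the 428 called LG/J genes with (vertical axis) and without (horizontal axis) this level as a covariate. All 4 LG/J arrays at 6M are low and all 6 at 23M are high, and 97 of the 428 genes (green) were called in both fits.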

How the data were processed

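Gene expression was measured on Clariom S mouse arrays. The deposited values are log2 levels per probe set, which the authors made with RMA in Affymetrix Expression Console according to the labels and with its signal-space form according to the methods. No value was rescaled. Groups came from the strain and age in the labels.

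Of 28846 probe sets, 6640 were controls and 19572 had exactly 1 gene symbol in the platform annotation. Where a gene had several probe sets (55 genes), that with the highest mean was kept, which left 19505 genes. X and Y genes (830) entered the fit and are not described.

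A linear model with moderated variances (limma 3.58.1, R 4.3.3) was fitted to 24 arrays of BL6 and LG/J as 4 groups, after tests on simulated data. P-values were adjusted by Benjamini-Hochberg over 19505 genes, and genes at adjusted p under 0.05 were called. The number of arrays limits the precision. The smallest groups held 4 and 6 arrays. Tables and plots were made with Python 3.11.15, pandas 2.3.3, numpy 2.4.6 and matplotlib 3.10.9.

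Genes were named if they were among the 12 largest rises or falls without overlap, among the 3 largest called members of a list in each direction, or among those the study names. Exceptions are stated. The members and the 59 lists were chosen with earlier results of these data known. Promoters of 250 bases came from a RefSeq table (GRCm38.p6), which held 59 of the 90 genes described. Alternatives were LG/J arrays alone, all 30 arrays, robust variances, array weights, quantile normalization, median centring, filters on low levels, all probe sets, covariates for Y-linked, muscle and granulocyte levels, the array number as a block, fold thresholds and leaving out each LG/J array. Value tables of the SM/J arrays entered only the fit of all 30 arrays. No per-sample column was left unmapped.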

Additional observations from a re-analysis of the deposited data

Results flagged for a closer look

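Single arrays stood apart from the other arrays of their group in 11 of the 180 groups of values looked at. That share is near the 1 in 20 that chance picks. Dixon's gap test was used. At 6M, array 1 was the lowest for Bace2 (4.44) and Foxa1 (4.88), array 2 the highest for Adamts5 (9.24), and array 3 the highest for Eln (8.96) and Cat (13.38). At 23M, array 1 was the lowest for Wnt16 (7.57) and Nkain4 (8.15) and the highest for Scnn1a (9.50). Array 2 was the lowest for Gdf5 (5.86) and Itga5 (10.82) at 23M, and array 6 for Foxa1 (6.00).

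The age difference of LG/J differed from that of BL6, by the interaction term in limma, for 25 of the 90 genes described. Interactions of single genes were not followed under the alternatives. Over all autosomal genes, the 80 called interactions became 42 without 6M array 2, 41 with the Y-linked covariate and 0 with the array number as a block. Among immediate early genes and those induced with them the excess of LG/J over BL6 was 6.27 for Fosb, 5.23 for Fos, 4.89 for Zfp36, 4.62 for Ier2, 4.58 for Junb, 4.29 for Egr1 and 3.98 for Btg2. Among targets of glucocorticoids and metals it was 3.67 for Mt2, 3.50 for Cebpd and 1.73 for Mt1. In the BMP pathway it was 4.20 for Id3, 3.34 for Id2, 3.01 for Id1 and 1.10 for Smad6. Immune and other genes with an excess were Nfkbiz (3.32), Bace2 (2.31), Cd80 (1.48), Bcl3 (1.36) and S100a10 (1.26). The difference was below that of BL6 by log2 values of -4.42 for Col10a1, -3.38 for Chad, -1.49 for Slit3, -1.14 for Ninj2, -1.14 for Slc22a17 and -1.13 for Sema3c. The Y-linked level runs with age in LG/J and not in BL6, so sex is part of this contrast and cannot be told apart from it.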

How the results depend on the processing

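All 428 calls kept their sign with LG/J arrays alone, all 30 arrays, robust variances, array weights, quantile normalization, median centring, each covariate and each LG/J array left out. At least 1 of the counts changed by more than 1.5 times in each of the following cases, and with the array number as a block, given below. With LG/J arrays alone 199 genes were called (139 higher, 60 lower), 179 of them among the 428. With all 30 arrays there were 251 (172 and 79). With the Y-linked covariate there were 116 (69 and 47), and 41 interactions in place of 80. The interaction count was 41 with the muscle covariate and 127 when genes below the 50th percentile were left out. A 2-fold threshold left 156 (113 and 43). With 1 LG/J array left out the calls ranged from 244 to 462, those higher from 156 to 286, those lower from 87 to 176, and the interactions from 42 to 100. Of these omissions, only that of 6M array 1, 2 or 4 changed a count by more than 1.5 times. The cause of these changes was not tested, except that the fold threshold and the omitted arrays remove calls or samples by construction.

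Among the 84 called genes described, 699 of 840 values with an array left out stayed called and 141 lost the call, and 948 of 1174 values under other settings stayed called. Array numbers 1 to 4 and 6 to 11 occur in both strains but never in both ages of LG/J. Same-numbered arrays did not deviate together (correlations -0.108 to 0.0922), so the numbers pair no samples. With the array number as a replicate block, 7 residual degrees of freedom remained, and 9 genes (6 higher, 3 lower) and 0 interactions were called by limma. At an unadjusted p under 0.05 these were 1852 and 1541. The block turned the sign of Casp4 (-0.0128), Sox9 (-0.789) and Masp1 (0.0541).

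Values near or under the negative controls give bounds only, which limits Bace2, Il6, Bcl3, Postn and Sult1a1 at 6M and Col10a1, Ibsp and Cnmd at 23M.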
